A study of Homo sapiens with 9 samples.

Results

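The 6 arrays described here compare Flip-In-293 cells carrying a CPSF3 hairpin with cells carrying a non-silencing hairpin. They are the 3 arrays titled as CPSF3 knockdown and the 3 titled as control, out of 9 in the series, and were chosen by those titles alone. Flip-In-293 derives from HEK293, a line of human embryonic kidney origin, and has 1 integration site. In every group the cells had received a short hairpin RNA by lentivirus, and RNA was taken after a culture of 10 days. The controls therefore carry a lentiviral hairpin too, and the sources used here do not say whether clones or pools of cells were used, or give the hairpin sequences. The other 3 arrays, with a hairpin against the splicing regulator RBFOX2, enter only as part of the estimate of spread and for values set beside those of the CPSF3 hairpin. The series asks how factors of mRNA 3' end formation affect exon use; here the level of whole genes was compared.

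CPSF3 is the endonuclease of the cleavage and polyadenylation complex. It cuts the nascent transcript downstream of the poly(A) signal, after which the poly(A) tail is added and the polymerase is released. The same enzyme cuts replication-dependent histone transcripts, which carry no poly(A) tail, so nearly every protein-coding transcript in a cell passes through it.

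A gene's level was the median of the log2 signals of its probe sets, each of which reads a short stretch of an exon, over at least 3 probe sets with exactly 1 gene symbol. Of 18589 such genes, 14837 reached, on average over the arrays, the median signal of the probe sets (6.97) and were tested with limma. Levels below are on this log2 scale, 1 unit being a 2-fold difference, and are given for replicates 1, 2 and 3 in that order; differences are the CPSF3 hairpin mean minus the control mean ± SE of the fit (3 arrays per group). "Rose", "fell" and "called" are used for genes with a Benjamini-Hochberg adjusted p under 0.05 over all 14837 genes. The replicates are biological by the sample titles but technical by the series text. The p-values therefore rest on the spread among arrays, whose source may be technical. In bulk RNA, fewer cells of a kind and less RNA per cell cannot be told apart.

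Over all tested genes, the CPSF3 hairpin arrays correlated with each other at 0.971 to 0.985, the controls with each other at 0.948 to 0.975 and the RBFOX2 hairpin arrays with each other at 0.958 to 0.975, while CPSF3 hairpin replicate 1 correlated with RBFOX2 hairpin replicates 1 and 2 at 0.942 and 0.943. Control replicate 3 correlated at 0.960 and 0.948 with control replicates 1 and 2. It correlated at 0.969, 0.981 and 0.967 with RBFOX2 hairpin replicates 1, 2 and 3, and at 0.941, 0.963 and 0.956 with those of the CPSF3 hairpin. Control replicates 1 and 2 correlated with the CPSF3 hairpin arrays at 0.884 to 0.933. CPSF3 hairpin replicate 3 correlated at 0.985 with CPSF3 hairpin replicate 2 and at 0.983 with RBFOX2 hairpin replicate 3 (Pearson, across genes of these libraries, which are not independent replicates). Control replicate 3 was the control closest to the CPSF3 hairpin mean in 1275 of the 1550 genes called higher (82.3%), in 282 of the 664 called lower (42.5%) and in 6855 of all 14837 (46.2%). Results are therefore also given without that array.

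CPSF3 itself was examined first, since it checks the titles of the arrays. It stood at 9.33, 9.17 and 9.76 on the control arrays, at 9.53, 9.26 and 9.04 on the CPSF3 hairpin arrays and at 9.73, 9.44 and 9.77 on the RBFOX2 hairpin arrays. The control and CPSF3 hairpin arrays overlapped, and control replicate 3 and RBFOX2 hairpin replicates 1 and 3 were the highest. The difference was -0.14 ± 0.17 (adjusted p = 0.637 in limma). Its 95% interval runs from -0.51 to 0.22, which is 70.4% to 117% of the control level. Of 22 CPSF3 probe sets, 19 had a lower mean and 3 a higher one; none had all its hairpin values below all its control values, and their mean difference was -0.09 (exact permutation test over arrays, 2-sided p = 0.7, where 0.1 is the smallest possible). Without control replicate 3 the difference was 0.028 (adjusted p = 0.930). A lower CPSF3 transcript level was thus not measured, and every direction below rests on the arrays' titles; "CPSF3 hairpin arrays" is used for the arrays titled CPSF3 knockdown.

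**Figure D1:**
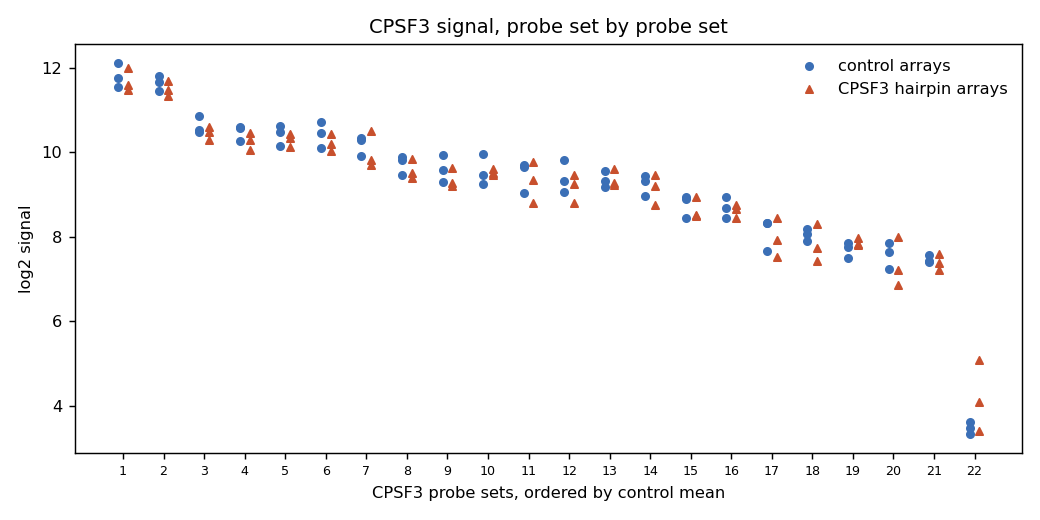
Log2 signal of the 22 CPSF3 probe sets (x axis, ordered by control mean) on the 3 control arrays (circles) and the 3 CPSF3 hairpin arrays (triangles). The 2 groups overlap at every probe set; 19 probe sets have a lower mean on the hairpin arrays.

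Elsewhere many genes differed. Of the 14837 genes tested, 2214 (14.9%) were called: 1550 rose (10.4%) and 664 fell (4.48%), and these shares are the background against which the gene groups below are read. The median difference of all genes was 0.02, that of the risers 0.64 and that of the fallers -0.55, and 142 rises and 53 falls reached 2-fold. With each array centred on its median gene level, the split was 1468 higher and 1010 lower (59.2% of calls higher, in place of 70%). All 3 hairpin values lay above all 3 control values in 19.5% of genes and below them in 13.1% (32.6% together). The count of calls was 3188 without control replicate 3. It was 803 and 967 without the first and the second control, and 792, 1292 and 1351 without CPSF3 hairpin replicates 1, 2 and 3. No called gene was called in the opposite direction in any of these fits, which reuse the same arrays, so an opposite call was hardly possible. The gene level is the median of these probe sets, so their agreement is a description: the median share of a gene's probe sets whose means shifted in the gene's own direction was 92% among risers and 93.8% among fallers, against 71.4% among genes not called.

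The 12 largest rises were taken among called genes with at least 6 probe sets, at least 80% of them moving the same way, and no overlap between the groups. NCOA5, a coactivator of nuclear receptors, stood at 7.19, 7.11 and 8.40 on the control arrays and 9.93, 9.52 and 9.49 on the CPSF3 hairpin arrays, a rise of 2.08 ± 0.29 (4.23-fold, adjusted p = 0.00185, limma) shown by 17 of 19 probe sets. EPC2, a scaffold subunit of the NuA4 histone acetyltransferase complex, stood at 7.37, 6.65 and 7.91 against 9.55, 8.88 and 8.79 and rose by 1.77 ± 0.27 (3.4-fold, adjusted p = 0.00308). MET, the receptor for hepatocyte growth factor, stood at 8.38, 7.93 and 9.66 against 10.17, 10.22 and 10.05 and rose by 1.49 ± 0.32 (2.8-fold, adjusted p = 0.0102), with 39 of 40 probe sets higher. That the 3 hairpin arrays lie above the 3 control arrays in all 12 is therefore part of how they were chosen; control replicate 3 lay between the other controls and the hairpin arrays. The controls themselves spanned over 1 unit for NCOA5, EPC2 and MET.

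UTP20, TRMT10C and YAE1 were also among the 12. UTP20, a component of the small-subunit processome that trims pre-ribosomal RNA, has the most probe sets of the 12, and 71 of 72 probe sets were higher; its levels were 7.18, 7.12 and 7.94 against 9.14, 8.82 and 8.86, a rise of 1.53 ± 0.21 (adjusted p = 0.00185, limma). TRMT10C, a subunit of mitochondrial RNase P and a tRNA methyltransferase, stood at 7.24, 6.80 and 8.23 against 9.22, 8.99 and 9.12 (1.68 ± 0.28, adjusted p = 0.00385). YAE1, which helps load an iron-sulphur cluster onto the ribosome-recycling factor ABCE1, stood at 8.28, 7.92 and 9.05 against 10.41, 10.11 and 10.08 (1.78 ± 0.26, adjusted p = 0.00263). All probe sets of TRMT10C and YAE1 were higher on the hairpin arrays. The other large rises were those of the zinc finger genes ZNF480 (1.70 ± 0.23) and ZNF594 (1.60 ± 0.31), of CHAMP1, a zinc finger protein of the mitotic spindle attachment machinery (1.44 ± 0.22), of the cyclic nucleotide phosphodiesterase PDE3B (1.66 ± 0.28), of PIGW, an acyltransferase of GPI anchor synthesis (1.60 ± 0.24), and of the mitochondrial folate carrier SLC25A32 (1.53 ± 0.19). These 12 calls held without each array in turn. PDE3B averaged 6.49 on the control arrays, below the median probe set signal that genes had to reach, and 8.15 on the CPSF3 hairpin arrays. It was tested because that filter averages over the arrays of all groups.

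Core promoter sequence is shown for 3 of these risers that hold short motifs counted in all promoters further below. The stretches are the 100 bases before the annotated start in RefSeq on GRCh38.p14, 5' to 3' on the gene's strand. Capitals mark the ETS core CCGGAAG, on either strand, in the first 2 and the E-box CACGTG in the third; a match is a description of the letters, and binding was not measured.
YAE1, chr7:39566304-39566403 (plus strand): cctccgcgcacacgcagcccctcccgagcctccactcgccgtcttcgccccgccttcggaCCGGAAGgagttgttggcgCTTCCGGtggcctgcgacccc
TRMT10C, chr3:101561768-101561867 (plus strand): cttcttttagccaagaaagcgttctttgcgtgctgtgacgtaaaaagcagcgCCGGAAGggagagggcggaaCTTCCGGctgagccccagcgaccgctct
UTP20, chr12:101280005-101280104 (plus strand): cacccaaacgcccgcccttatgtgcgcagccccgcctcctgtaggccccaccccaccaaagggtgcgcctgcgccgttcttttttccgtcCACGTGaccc
YAE1 and TRMT10C each hold the ETS core on both strands within 50 bases before the start.

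STC1 and TXNIP were among the largest falls, which were chosen by the same rule as the rises. STC1, a secreted glycoprotein hormone, stood at 9.85, 9.71 and 9.64 on the control arrays and 6.93, 7.23 and 7.29 on the CPSF3 hairpin arrays, a difference of -2.58 ± 0.20 (5.99-fold, adjusted p = 4.41e-05, limma) shown by 14 of 14 probe sets. TXNIP, the arrestin-domain protein that inhibits thioredoxin and restrains glucose uptake, stood at 11.86, 11.75 and 11.24 against 9.31, 9.39 and 9.32 (-2.28 ± 0.25, 4.84-fold, adjusted p = 0.00104). Its paralogue ARRDC4 stood at 11.03, 10.98 and 11.82 against 9.44, 9.66 and 9.84 (-1.63 ± 0.24, adjusted p = 0.00263), with 22 of 22 probe sets lower. For STC1 and TXNIP the controls lay within 1 unit of each other, and the groups were further apart than the controls were spread; for ARRDC4, control replicate 3 was the highest control.

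DDIT4, an inhibitor of mTORC1 that stress induces, stood close together on the controls, at 9.91, 9.79 and 9.79, against 8.0, 8.24 and 8.06 on the hairpin arrays (-1.73 ± 0.11, 3.31-fold, adjusted p = 1.47e-05, limma). GDF15, a stress-induced cytokine, stood at 10.75, 10.69 and 10.80 against 8.96, 9.33 and 9.31 (-1.54 ± 0.15, adjusted p = 0.000328). Both groups were narrow for these genes and far apart, and with a test against a minimum change of 0.5 only 6 genes of the array passed: STC1, TXNIP, DDIT4, GDF15, the neurite protein gene NRN1 and the BMP antagonist gene CHRDL1, all lower. The hypoxia-linked genes HILPDA, a lipid droplet protein (-1.63 ± 0.21), and P4HA1, a collagen prolyl hydroxylase subunit (-1.53 ± 0.19), the transcriptional repressor BHLHE40 (-1.51 ± 0.20), the growth arrest gene GADD45A (-1.47 ± 0.20) and SNHG1, whose introns hold small nucleolar RNAs (-1.79 ± 0.34), also fell. These calls held without each array in turn. ATF3, a stress-induced transcription factor, stood at 10.03, 10.19 and 8.53 against 8.37, 8.06 and 7.93 (-1.46 ± 0.33, adjusted p = 0.0124), and was at -1.24 (adjusted p = 0.0572) without control replicate 1. MRPL32, a subunit of the mitochondrial ribosome (-1.71 ± 0.25), was at -0.27 when only probe sets above the median signal were used, and was then not called.

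Promoter stretches of 3 fallers are shown because TXNIP and ARRDC4, the paralogues, and DDIT4 were among the largest falls. The coordinates are again RefSeq on GRCh38.p14, and the strand is the gene's; TXNIP is shown from 150 to 71 bases before the start, ARRDC4 from 220 to 51 and DDIT4 from 150 to 51. Capitals mark the NFY box CCAAT, on either strand, in all 3, the E-box CACGTG in ARRDC4 and the hypoxia core ACGTG, which is also contained in the E-box, in DDIT4.
TXNIP, chr1:145996650-145996729 (minus strand): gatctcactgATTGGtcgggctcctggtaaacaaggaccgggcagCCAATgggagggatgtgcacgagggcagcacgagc
ARRDC4, chr15:97960483-97960652 (plus strand): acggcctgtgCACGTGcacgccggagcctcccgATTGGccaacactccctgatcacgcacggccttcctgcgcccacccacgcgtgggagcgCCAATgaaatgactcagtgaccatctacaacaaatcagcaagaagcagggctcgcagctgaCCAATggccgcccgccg
DDIT4, chr10:72273774-72273873 (plus strand): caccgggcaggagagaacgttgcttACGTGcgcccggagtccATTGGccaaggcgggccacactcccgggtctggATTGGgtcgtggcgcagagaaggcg
The NFY box is a common sequence: 35.7% of all 27305 promoters in the RefSeq table hold it.

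The RBFOX2 hairpin arrays are compared with the same 3 controls, so their differences are not independent of those above and are only set beside them. NCOA5 stood at 9.29, 8.69 and 9.33 there (1.54 ± 0.29, adjusted p = 0.0643, limma), EPC2 at 7.97, 7.78 and 8.28 (0.70 ± 0.27, adjusted p = 0.266) and MET at 9.38, 9.18 and 9.71 (0.77 ± 0.32, adjusted p = 0.287). STC1 stood at 7.87, 8.82 and 8.23 (-1.42 ± 0.20, adjusted p = 0.0168), TXNIP at 10.07, 10.97 and 9.70 (-1.37 ± 0.25, adjusted p = 0.0643) and ARRDC4 at 10.68, 11.37 and 10.53 (-0.42 ± 0.24, adjusted p = 0.462). Against the shared controls 12 genes were called on the RBFOX2 hairpin arrays (0.0809% of those tested); the difference between the hairpins was not tested here.

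**Figure D2:**
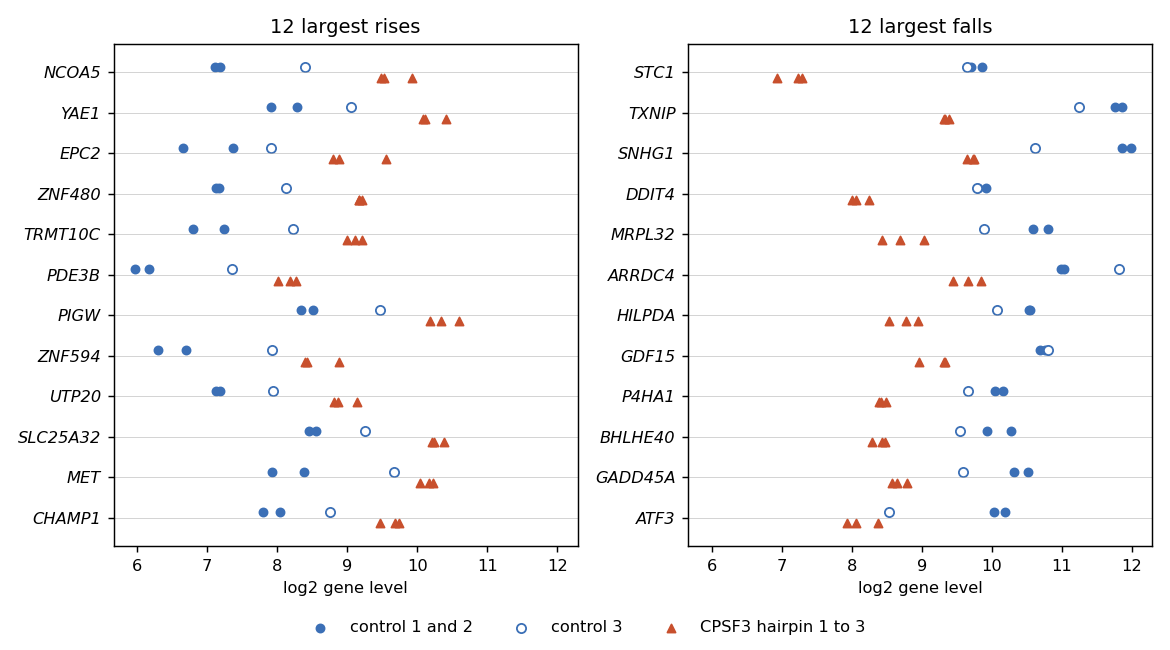
Log2 level (x axis) of the 12 genes with the largest rises (left) and the 12 with the largest falls (right) on the control arrays (circles; open, control replicate 3) and the CPSF3 hairpin arrays (triangles). In the left panel control replicate 3 lies between the other controls and the hairpin arrays for each gene.

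Gene groups beyond these were read from 45 lists of pathways and complexes; each is given by its members called and its median difference, beside 10.4% higher, 4.48% lower and a median of 0.02 over all genes. Which side held more calls turned in 4 of the 45 lists when arrays were centred on their median (autophagy, circadian clock, semaphorins with plexins and cadherins, tubulins with actin regulators) and in 3 without control replicate 3 (circadian clock, Wnt and Notch targets, receptor tyrosine kinases). Because fewer genes are called without most single arrays, the count of the main groups is also given without control replicate 3 and as its range when each other array of the 2 groups is left out. Over all genes the shares were 16.3% higher and 5.25% lower without control replicate 3. Without 1 of the other 5 they were 2.95% to 6.91% higher and 1.5% to 2.95% lower. The shares over all genes are not matched to the genes of a list or family. From the shortest to the longest quintile of genes, the share called higher went from 3.8% to 15.1%. The part of gene length, gene level and number of probe sets in the share of a list or family was not tested.

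tRNA maturation had one of the larger shares of risers. Of 55 tested genes for tRNA processing and modification, 18 rose (32.7%) and 0 fell, with a median of 0.31. The fit without control replicate 3 gave 26, and the count was 5 (without CPSF3 hairpin replicate 1) to 15 when 1 of the other 5 arrays was left out. TRMT10C was the highest, followed by TRMT13, which methylates the acceptor stem of tRNA (1.09 ± 0.23, adjusted p = 0.0101, limma). TRMT13 stood at 8.15, 7.69 and 8.19 on the control arrays and 9.13, 8.90 and 9.28 on the hairpin arrays, which did not overlap. The polymerases that make tRNA and ribosomal RNA followed: 11 of 40 genes of RNA polymerases I and III rose and 0 fell (median 0.29). Leaving out control replicate 3 gave 13, and leaving out 1 of the other 5 arrays gave 5 (without CPSF3 hairpin replicate 1) to 9. POLR3B, the second largest subunit of polymerase III, stood at 7.35, 7.42 and 8.25 against 8.99, 8.71 and 8.92 (1.20 ± 0.21, adjusted p = 0.0048), and POLR3C, another polymerase III subunit, rose by 0.92 ± 0.19. For RNA polymerase II and its general factors, 6 of 40 rose and 0 fell (median 0.19), led by the TFIIH subunit GTF2H1 (1.20 ± 0.24) and the TFIID subunit TAF9B (0.86 ± 0.14). The count was 8 without control replicate 3 and 3 (without control replicate 1 or 2 or CPSF3 hairpin replicate 3) to 5 without 1 of the other 5 arrays.

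In the lists of factors that act on mRNA after transcription, the share called higher was above the 10.4% of all genes with all arrays. In the list of m6A and small RNA factors, 12 of 30 genes rose (40%) and 0 fell, with the highest median of the 45 lists (0.42). When control replicate 3 was left out the count was 16, and without 1 of the other 5 arrays it was 5 (without CPSF3 hairpin replicate 1) to 10. IGF2BP3, which binds and stabilises mRNA, stood at 9.04, 8.85 and 9.52 against 10.25, 9.93 and 10.01 (0.93 ± 0.17, adjusted p = 0.00554, limma), and LIN28B, which blocks let-7 maturation, stood at 8.99, 8.67 and 9.09 against 10.06, 9.72 and 9.47 (0.83 ± 0.17, adjusted p = 0.00804). For both genes the hairpin arrays lay above all controls, and both are normally high in fetal and transformed cells. Among DEAD and DEAH box RNA helicases 9 of 45 rose and 0 fell (median 0.31), led by the ribosome biogenesis helicases DDX18 (1.28 ± 0.16) and DDX52 (0.97 ± 0.16). Dropping control replicate 3 changed the count to 13, and dropping 1 of the other 5 arrays to 4 (without CPSF3 hairpin replicate 1) to 7. Deadenylation and decapping factors gave 8 of 35 higher and 1 lower (median 0.26). In the fit without control replicate 3 the count higher was 12, and in those without 1 of the other 5 arrays 1 (without control replicate 1 or CPSF3 hairpin replicate 1) to 6. The mRNA export list gave 5 of 19 higher and 1 lower (median 0.31). The number called higher was 6 with control replicate 3 left out and 0 (without control replicate 1 or 2, CPSF3 hairpin replicate 1 or 2) to 3 with 1 of the other 5 arrays left out.

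Lists of chromatin regulators also had shares called higher above that of all genes when all arrays were used. Of 39 subunits of SWI/SNF, INO80 and CHD remodellers, 15 rose (38.5%) and 1 fell (median 0.32). Fits without 1 of the 5 arrays other than control replicate 3 gave 5 (without control replicate 2) to 11 higher, and the fit without control replicate 3 gave 18. BAZ1A, a subunit of the ISWI-type ACF remodeller, stood at 9.24, 8.84 and 9.58 against 10.30, 10.35 and 10.41 (1.13 ± 0.18, adjusted p = 0.0033, limma), and INO80, the ATPase of the complex of that name, rose by 0.94 ± 0.17. The ISWI ATPase SMARCA1 fell by 0.54 ± 0.11 and was the single member to do so. Histone acetyltransferase and deacetylase genes gave 12 of 39 higher (30.8%) and 0 lower (median 0.12), with EPC2 and ING3, both NuA4 subunits, highest (ING3 0.92 ± 0.17). The fit without control replicate 3 gave 11, and the count was 6 (without control replicate 1) to 8 when 1 of the other 5 arrays was left out. Histone methyltransferases and demethylases gave 12 of 43 higher and 0 lower (median 0.13). Leaving out control replicate 3 gave 12, and leaving out 1 of the other 5 arrays gave 0 (without control replicate 1 or 2 or CPSF3 hairpin replicate 1) to 5. Histone chaperones gave 6 of 27 higher and 0 lower, among them IPO4, the importin of new histones (0.86 ± 0.15). The count was 8 without control replicate 3 and 1 (without control replicate 1 or 2) to 4 without 1 of the other 5 arrays.

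For the machinery that holds and separates chromosomes, the share called higher with all arrays was likewise above that of all genes. Cohesin and condensin genes gave 13 of 29 higher (44.8%) and 1 lower (median 0.36). When control replicate 3 was left out the count higher was 15, and without 1 of the other 5 arrays it was 3 (without control replicate 2 or CPSF3 hairpin replicate 1) to 5. ESCO2, which acetylates cohesin during replication, stood at 8.63, 8.43 and 8.71 against 9.83, 9.55 and 9.77 (1.13 ± 0.18, adjusted p = 0.00328, limma), and WAPL, which releases cohesin from chromatin, stood at 8.53, 8.25 and 8.85 against 9.45, 9.29 and 9.38 (0.83 ± 0.14, adjusted p = 0.0044). A factor that locks cohesin on chromatin and one that removes it were thus both higher, with no overlap between the groups. Kinetochore genes gave 6 of 32 higher and 0 lower (median 0.26), led by SKA3 (0.91 ± 0.19), which couples kinetochores to microtubules. Dropping control replicate 3 changed the count to 11, and dropping 1 of the other 5 arrays to 1 (without control replicate 1 or CPSF3 hairpin replicate 1) to 4. For cilium and centriole genes 10 of 52 rose and 1 fell (median 0.12). In the fit without control replicate 3 the count higher was 13, and in those without 1 of the other 5 arrays 1 (without control replicate 2 or CPSF3 hairpin replicate 1) to 7; TULP3, which carries membrane receptors into cilia, rose by 1.00 ± 0.14. Motor proteins stood near the background, with 3 of 44 kinesin and dynein genes higher and 1 lower (median 0.03), as did tubulins and actin regulators, with 5 of 46 higher and 2 lower (median 0.10).

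In the lists of ubiquitin and SUMO enzymes the share called higher was above that over all genes, and the share called lower was near it. In the SUMO and E2 list 10 of 39 rose (25.6%) and 2 fell (5.13%). The number called higher was 11 with control replicate 3 left out and 3 (without control replicate 2 or CPSF3 hairpin replicate 1) to 5 with 1 of the other 5 arrays left out. SENP6, which trims SUMO chains (1.07 ± 0.20, adjusted p = 0.00654, limma), and NAE1, a subunit of the enzyme that activates NEDD8 (0.93 ± 0.16), rose, and UBE2S, the chain-elongating E2 of the anaphase-promoting complex, fell by 0.72 ± 0.15. UBE2S stood at 10.90, 10.34 and 10.25 on the control arrays and 9.85, 9.79 and 9.68 on the hairpin arrays, with no overlap. Cullin ligases and F-box genes gave 9 of 63 higher (14.3%) and 2 lower (3.17%), with a median of 0.21. Fits without 1 of the 5 arrays other than control replicate 3 gave 2 (without CPSF3 hairpin replicate 1) to 8 higher, and the fit without control replicate 3 gave 18. Their extremes were FBXO28 (1.15 ± 0.22) and BTRC, the F-box protein that targets beta-catenin and IkB (0.85 ± 0.16), on the higher side, and KLHL15 (-0.99 ± 0.12) and the scaffold CUL4B (-0.73 ± 0.15) on the lower side. The TRiC and prefoldin list gave 3 of 22 higher and 0 lower (median 0.03), with the chaperonin subunit CCT6A at 0.93 ± 0.14.

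Among membrane traffic and glycosylation lists, the share called higher was above that of all genes for the exocyst, N-glycan, lysosome and coat lists. It was below that share in GPI anchor synthesis, where as many were lower as higher. The exocyst, retromer and ESCRT list gave 10 of 36 higher (27.8%) and 0 lower (median 0.19). The fit without control replicate 3 gave 12, and the count was 2 (without control replicate 1 or 2 or CPSF3 hairpin replicate 1) to 5 when 1 of the other 5 arrays was left out. EXOC6, a subunit of the complex that tethers secretory vesicles, stood at 7.69, 7.42 and 8.09 against 9.02, 8.82 and 8.96 (1.20 ± 0.20, adjusted p = 0.00388, limma). Dolichol and N-glycan assembly gave 7 of 29 higher and 0 lower. Leaving out control replicate 3 gave 8, and leaving out 1 of the other 5 arrays gave 2 (without control replicate 1 or 2 or CPSF3 hairpin replicate 1) to 5. DHDDS, the synthase that makes the dolichol chain, rose by 0.87 ± 0.19 and was at 0.72 (adjusted p = 0.0555) without CPSF3 hairpin replicate 1. GPI anchor synthesis gave 2 of 28 higher and 2 lower, with a median of 0.02: besides PIGW, the mannosyltransferase PIGM rose by 1.33 ± 0.28 and was at 1.24 (adjusted p = 0.0522) without CPSF3 hairpin replicate 1. PIGL, a deacetylase of the same route (-0.62 ± 0.19), and PIGX, a partner of PIGM (-0.52 ± 0.13), were the lower ones. The count lower was 1 without control replicate 3 and 0 (without control replicate 1 or 2, CPSF3 hairpin replicate 2 or 3) to 1 without 1 of the other 5 arrays. In the lysosome and V-ATPase list 7 of 34 rose and 1 fell, with a median of -0.02; ATP6V1C1, a subunit of the proton pump, stood at 8.35, 7.93 and 8.91 against 9.94, 9.63 and 9.53 (1.30 ± 0.21, adjusted p = 0.00388). When control replicate 3 was left out the count higher was 9, and without 1 of the other 5 arrays it was 2 (without CPSF3 hairpin replicate 1) to 6. COPI and COPII coats gave 4 of 24 higher and 0 lower, among them the coat GTPase SAR1B (0.82 ± 0.13). Dropping control replicate 3 changed the count to 5, and dropping 1 of the other 5 arrays to 1 (without control replicate 1 or 2, CPSF3 hairpin replicate 1 or 3) to 2. Autophagy, with 2 of 35 higher and 1 lower, and peroxisome biogenesis, with 1 of 14 higher and 0 lower, had shares at or below those over all genes; with centred arrays falls outnumbered rises in the autophagy list.

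Metabolic lists split by pathway. Serine, glycine and folate metabolism had more falls than rises: 5 of 22 fell (22.7%) and 2 rose. In the fit without control replicate 3 the count lower was 7, and in those without 1 of the other 5 arrays 3 (without control replicate 1 or CPSF3 hairpin replicate 3) to 5. ALDH1L2, the mitochondrial enzyme that oxidises formyl-tetrahydrofolate, stood at 8.63, 8.48 and 8.83 on the control arrays and 7.48, 7.34 and 7.23 on the hairpin arrays, a difference of -1.30 ± 0.14 (2.46-fold, adjusted p = 0.000804, limma). The glycine decarboxylase GLDC fell by 0.66 ± 0.15 and was at -0.60 (adjusted p = 0.0501) without CPSF3 hairpin replicate 3, while MTRR, which reactivates methionine synthase, rose by 0.73 ± 0.14. Nucleotide synthesis went the other way, with 6 of 24 higher and 1 lower (median 0.19). The number called higher was 7 with control replicate 3 left out and 3 (without control replicate 1, CPSF3 hairpin replicate 1 or 2) to 7 with 1 of the other 5 arrays left out. UMPS, which completes uridine monophosphate, stood at 7.67, 7.57 and 8.42 against 9.31, 9.16 and 9.01 (1.28 ± 0.21, adjusted p = 0.00388), and CTPS1, which makes cytidine triphosphate, rose by 0.81 ± 0.17. Both enzymes belong to the pyrimidine branch, and in both genes the groups did not overlap.

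Mitochondrial and transport genes were called in both directions. In the TCA cycle list 2 of 25 rose and 2 fell: the mitochondrial isocitrate dehydrogenase IDH2 fell by 0.91 ± 0.12 and the kinase PDK1, which switches pyruvate dehydrogenase off, fell by 0.74 ± 0.12, while DLD, the lipoamide dehydrogenase shared by several complexes, rose by 0.76 ± 0.13 (limma, adjusted p = 0.00513). IDH2 stood at 10.48, 10.28 and 10.39 against 9.51, 9.57 and 9.32, and PDK1 at 10.52, 10.25 and 10.14 against 9.56, 9.65 and 9.49. These calls held without each array in turn. Mitochondrial import gave 6 of 29 higher and 0 lower, with TIMM8A highest (0.79 ± 0.16). Fits without 1 of the 5 arrays other than control replicate 3 gave 2 higher, and the fit without control replicate 3 gave 6. Without control replicate 3, 1 was also lower. Fatty acid oxidation gave 2 of 21 higher and 1 lower (median -0.05). Amino acid transporters gave 4 of 25 higher and 1 lower. The fit without control replicate 3 gave 9 higher, and the count was 3 (without control replicate 1 or CPSF3 hairpin replicate 1) to 4 when 1 of the other 5 arrays was left out. The lysosomal arginine sensor SLC38A9 rose by 0.92 ± 0.19 and the lysosomal proton-coupled exporter SLC36A1 by 0.73 ± 0.14, while the plasma membrane cationic transporter SLC7A3 fell by 1.08 ± 0.14. SLC7A3 stood at 8.76, 8.76 and 9.02 against 7.62, 7.93 and 7.76, with the groups apart.

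Signalling and stress target genes were called in both directions, from 0 of 25 higher among YAP and SRF targets to 18.2% higher and 18.2% lower among MAPK feedback genes. YAP and SRF targets gave 0 of 25 higher and 1 lower, TGF-beta and BMP targets 0 and 2 of 23, Wnt and Notch targets 0 and 2 of 27, with medians of -0.04, -0.10 and -0.10. TGFB2, a TGF-beta ligand, fell by 0.85 ± 0.17 (adjusted p = 0.00812, limma), from 9.04, 8.76 and 9.43 to 8.20, 8.24 and 8.23. NF-kappaB targets and cytokines gave 1 of 22 higher and 3 lower: the chemokine CCL2 fell by 0.72 ± 0.15, and NFKB1, which encodes the p50 subunit and its precursor, rose by 0.93 ± 0.16. NFKB1 stood at 7.61, 7.35 and 7.58 against 8.62, 8.36 and 8.35, with no overlap. MAPK feedback genes divided evenly, 4 of 22 higher and 4 lower, with the early response gene IER3 at -0.72 ± 0.13. Leaving out control replicate 3 gave 4 higher, and leaving out 1 of the other 5 arrays gave 1 (without control replicate 2 or CPSF3 hairpin replicate 1) to 5. On the lower side, 5 were called without control replicate 3 and 1 without any of the other 5 arrays. The NRF2 and metallothionein list gave 4 of 27 higher and 2 lower, with the ferritin light chain FTL at -0.87 ± 0.17 and the metallothionein MT1F at -0.58 ± 0.12, which was at -0.49 (adjusted p = 0.0541) without control replicate 1. Among BCL2 family and caspase genes 1 of 24 rose and 3 fell: PMAIP1, a p53-inducible killer protein also called NOXA, stood at 11.91, 12.13 and 11.98 against 10.82, 11.03 and 11.23 (-0.98 ± 0.15, adjusted p = 0.00296). In the circadian list 3 of 21 rose and 1 fell: the activators CLOCK (0.76 ± 0.15) and BMAL2 (0.84 ± 0.16) rose, and the repressor BHLHE40 is the fall given above.

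Among surface proteins, 10.3% of the ion channels tested and 9.09% of the receptor tyrosine kinases and ephrins were lower, beside 4.48% of all genes. Of 44 receptor tyrosine kinases and ephrins, 1 rose, which was MET, and 4 fell. The collagen receptor DDR1, the lowest of these, fell by 0.70 ± 0.14 (adjusted p = 0.00731, limma). The list's calls were 3 lower without control replicate 3 and 1 (without control replicate 1) to 3 when 1 of the other 5 arrays was left out, and on the higher side 6 without control replicate 3 and 1 without any of the other 5. Semaphorins, plexins and cadherins gave 2 of 42 higher and 0 lower. The count higher was 8 without control replicate 3 and 0 (without control replicate 1 or 2, CPSF3 hairpin replicate 1 or 2) to 2 without 1 of the other 5 arrays. Ion channels gave 4 of 39 higher and 4 lower (median -0.11): the sodium channel SCN9A stood at 6.53, 6.27 and 6.99 against 7.58, 7.47 and 7.77 (1.01 ± 0.17), and the potassium channel KCNH2 at 9.51, 9.39 and 9.44 against 8.72, 8.79 and 8.91 (-0.64 ± 0.11). When control replicate 3 was left out the count higher was 5, and without 1 of the other 5 arrays it was 1 (without CPSF3 hairpin replicate 1) to 3. Dropping control replicate 3 changed the count lower to 3, and dropping 1 of the other 5 arrays to 2 (without control replicate 1, CPSF3 hairpin replicate 1, 2 or 3) to 3. SCN9A and KCNH2 kept their calls without each array in turn. For SCN9A, control replicates 1 and 2 lay below the median probe set signal that genes had to reach on average. That average also takes in the CPSF3 hairpin arrays, which were higher. Selenoproteins gave 0 of 24 higher and 3 lower (median -0.07). In the fit without control replicate 3 the count lower was 3, and in those without 1 of the other 5 arrays 0 (without control replicate 1, CPSF3 hairpin replicate 1 or 3) to 2.

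Genes with no introns bypass splicing but still need 3' end cleavage, so they were listed apart. Of 48 signalling and nuclear genes of this kind, 6 fell (12.5%) and 2 rose, with a median of -0.09. The number called lower was 5 with control replicate 3 left out and 5 with 1 of the other 5 arrays left out. Fits without 1 of the 5 arrays other than control replicate 3 gave 0 (without CPSF3 hairpin replicate 1) to 2 higher, and the fit without control replicate 3 gave 5. JUND, a subunit of the AP-1 transcription factor, stood at 10.96, 10.63 and 10.16 against 9.57, 9.70 and 9.44 (-1.01 ± 0.17, 2.02-fold, adjusted p = 0.00407, limma). For JUND every hairpin array was below every control, and the call held without each array in turn. The highest riser, PIGM, is the one described above whose call is lost without CPSF3 hairpin replicate 1.

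**Figure D3:**
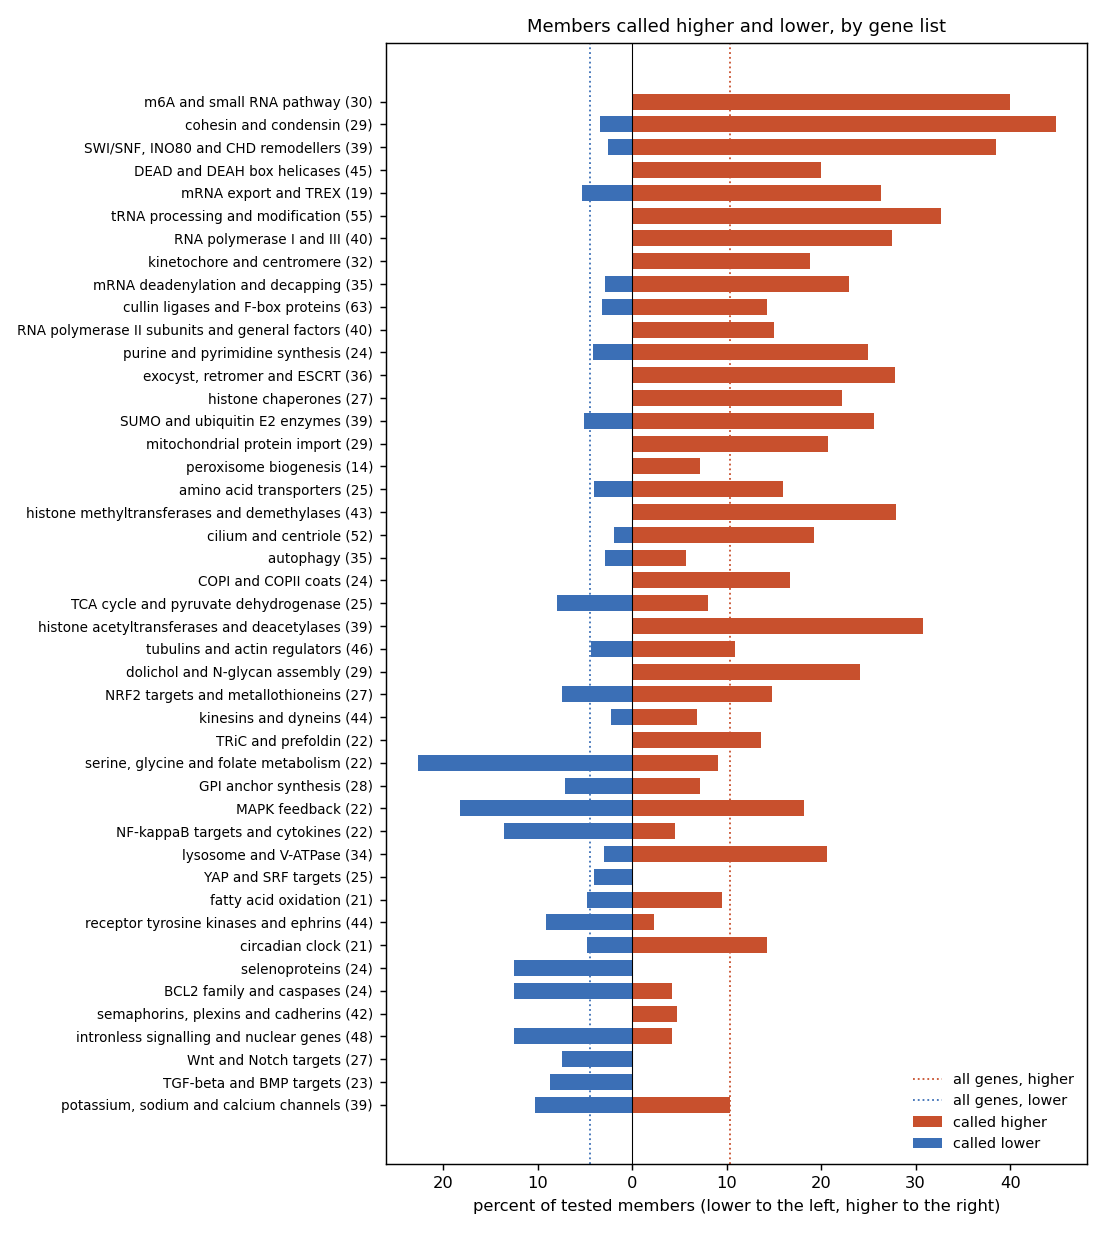
Percent of tested members called higher (bars to the right) and lower (bars to the left) for each of the 45 gene lists (number tested in brackets), ordered by median difference; dotted lines mark the shares over all 14837 genes, 10.4% higher and 4.48% lower. The m6A and small RNA list is at the top; lists near the bottom have medians below 0.

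Without any chosen list, genes were also grouped by the letters of their symbols, for the 98 stems with at least 15 tested genes. The largest share of rises was in the nucleoporin stem NUP, whose proteins build the nuclear pore: 13 of 23 rose and 0 fell (median 0.38). The fit without control replicate 3 gave 13, and the count was 3 (without control replicate 2 or CPSF3 hairpin replicate 1) to 9 when 1 of the other 5 arrays was left out. NUP88, a nucleoporin of the cytoplasmic face, stood at 10.09, 9.79 and 10.54 against 11.08, 10.90 and 11.04 (0.87 ± 0.18, adjusted p = 0.00867, limma). Integrator subunits (INTS), which cleave small nuclear RNA precursors with a paralogue of CPSF3, gave 6 of 16 higher and 0 lower (median 0.29), INTS6 at 1.10 ± 0.18. Leaving out control replicate 3 gave 7, and leaving out 1 of the other 5 arrays gave 3 (without CPSF3 hairpin replicate 1) to 6. Vacuolar sorting genes (VPS) gave 12 of 35 higher and 0 lower, with the tethering subunit VPS33A at 0.80 ± 0.17. The count was 13 without control replicate 3 and 2 (without CPSF3 hairpin replicate 1) to 7 without 1 of the other 5 arrays. WD repeat genes (WDR) gave 14 of 48 higher and 1 lower, WDR77, a partner of the methyltransferase PRMT5, at 0.72 ± 0.15. When control replicate 3 was left out the count higher was 20, and without 1 of the other 5 arrays it was 1 (without CPSF3 hairpin replicate 1) to 8. TRAPPC genes, for a vesicle tethering complex, gave 4 of 15 higher and 0 lower, with TRAPPC8 at 0.79 ± 0.15. Dropping control replicate 3 changed the count to 5, and dropping 1 of the other 5 arrays to 1 (without control replicate 1 or CPSF3 hairpin replicate 1) to 3. The stem PIK gave 4 of 15 higher with a median of -0.02. In the fit without control replicate 3 the count higher was 5, and in those without 1 of the other 5 arrays 0 (without control replicate 1 or 2 or CPSF3 hairpin replicate 1) to 3.

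The largest shares of falls were in the stems of ribosomal protein genes and in those of a few families of enzymes and transcription factors. A stem goes by letters alone, so it can also hold other genes, such as kinase genes with RPS symbols. The stem RPS, named for ribosomal proteins of the small subunit, gave 7 of 37 lower and 0 higher (median -0.26). The number called lower was 14 with control replicate 3 left out and 1 (without control replicate 1) to 5 with 1 of the other 5 arrays left out. The stem RPL, named for proteins of the large subunit, gave 8 of 51 lower and 2 higher (median -0.23). Fits without 1 of the 5 arrays other than control replicate 3 gave 0 (without control replicate 1) to 3 lower, and the fit without control replicate 3 gave 18. On the RBFOX2 hairpin arrays, against the same controls, the medians were -0.19 for RPS and -0.23 for RPL, beside 0.03 over all genes. Negative medians of these stems were thus not particular to the CPSF3 hairpin arrays. Among the stems with the largest shares of rises, the RBFOX2 hairpin medians were 0.17 (NUP), 0.11 (INTS), 0.15 (VPS), 0.15 (WDR), 0.07 (PIK) and 0.06 (TRAPPC). For the lists with the largest shares they were 0.17 (cohesin), 0.13 (m6A), 0.11 (remodellers), 0.19 (tRNA) and 0.02 (histone acetylation). Raised medians were thus seen there too, apart from the last. The stem RPL was not uniform: RPL27A stood at 8.77, 8.78 and 9.29 against 10.28, 10.06 and 9.93 and rose by 1.15 ± 0.16 (adjusted p = 0.00185, limma). RPS15A was at -0.89 ± 0.19 and at -0.75 (adjusted p = 0.0544) without control replicate 1. Ribosomal protein genes have many near-identical processed copies that can bind the same probes, so the value of a single member is uncertain. Krüppel-like factors (KLF) gave 3 of 16 lower and 0 higher, and KLF10, an early response repressor, stood at 9.47, 9.12 and 9.01 against 8.35, 8.28 and 8.18 (-0.93 ± 0.15). Aldehyde dehydrogenases (ALDH) gave 3 of 17 lower, ALDH1L2 lowest, and the stems FKBP and ABHD each gave 3 lower, with 2 of 16 and 1 of 20 higher. The medians of ALDH and ABHD were 0.02 and 0.003. Without control replicate 3, KLF gave 3 lower and 0 higher, ALDH 3 and 2, and FKBP 3 and 3. ABHD then gave 2 lower and 3 higher, so the side with more calls turned. Leaving out 1 of the other 5 arrays gave 2 lower for KLF, 2 to 3 for ALDH, 1 to 4 for FKBP and 1 to 3 for ABHD. At the other end, 0 of 44 keratin-associated (KRTAP), 0 of 27 cytochrome oxidase (COX), 0 of 19 myosin (MYO), 0 of 19 NUDT, 0 of 19 STK and 0 of 18 FGF genes were called in limma; over all genes 4359 had an unadjusted p under 0.05.

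**Figure D4:**
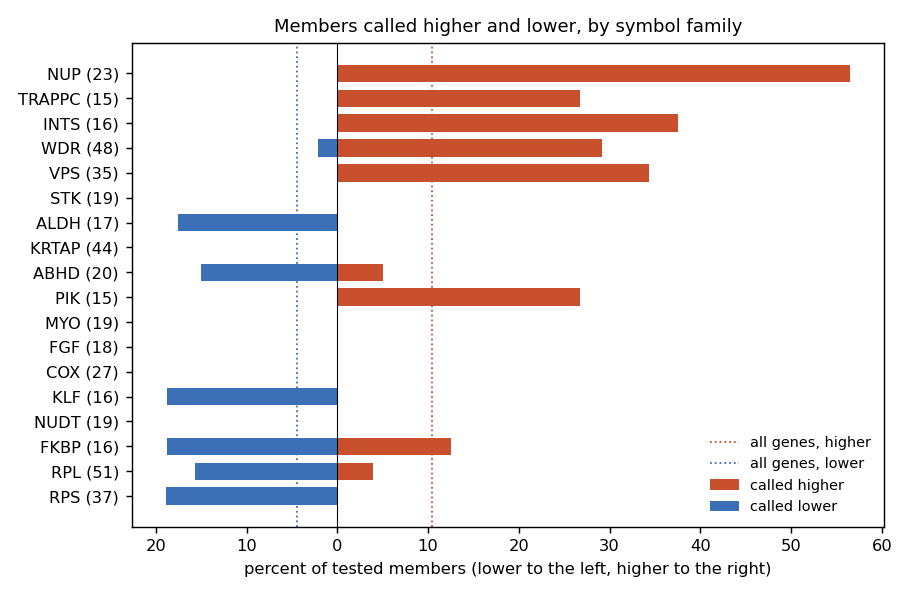
Percent of tested members called higher (right) and lower (left) in the symbol families with the largest shares called higher, called lower and not called (number tested in brackets); dotted lines mark the shares over all genes. NUP has the longest bar to the right, and 6 families have none.

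Properties of the genes themselves went with the share of calls. The tested genes were cut into quintiles by annotated length, the shortest reaching 7560 bases and the longest starting above 84694. From shortest to longest, the share called higher was 3.8%, 8.07%, 11.4%, 14.1% and 15.1%, and the share called lower was 5.76%, 5.05%, 4.34%, 3.86% and 3.39%. The median difference went from -0.04 in the shortest quintile to 0.11 in the longest. With all arrays, the shortest quintile thus held more falls than rises and the other quintiles more rises than falls. Without control replicate 3 the share called higher went from 8.01% to 24.1% and the share called lower from 7.8% to 3.05%, and the shortest quintile then held more rises than falls.

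Other properties run along with length, so their part in it was only looked at by splitting. By number of probe sets per gene (3 to 5, 6 to 10, 11 to 20, 21 to 40 and over 40), 4.03%, 6.18%, 9.85%, 13.8% and 14.9% were called higher and 3.29%, 4.95%, 5.19%, 4.04% and 2.49% lower; a median over more probe sets also has less error. By quintile of gene level, the share called climbed on both sides, from 6.47% to 13.7% higher and from 2.8% to 6.87% lower. Among genes above the median level alone, the length quintiles gave 4.98%, 11.3%, 13.6%, 16.7% and 18.4% higher and 9.36%, 6.64%, 5.33%, 3.27% and 3.35% lower, so the gradient was present there too. By type, 10.8% of 14008 protein-coding genes rose and 4.57% fell, against 3.56% and 3.24% of 309 long non-coding RNA genes.

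**Figure D5:**
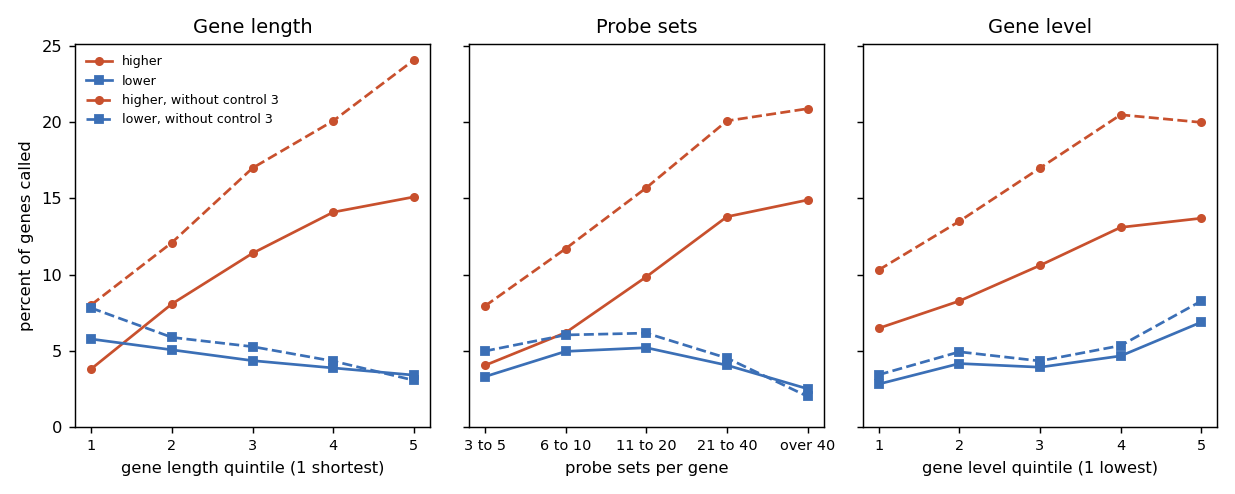
Percent of genes called higher (circles) and lower (squares) by quintile of gene length, by number of probe sets and by quintile of gene level; solid lines use all arrays, dashed lines leave out control replicate 3. The share called higher climbs with length in both, from 3.8% to 15.1% with all arrays.

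Promoter letters could be read for 11440 of 14008 protein-coding genes tested (81.7%), and for 86.9% of the risers among them; for the fallers the share was 78%, too few for a comparison, which is void. The window runs from 250 bases before to 50 after the RefSeq start, and each motif was searched on both strands. The share of risers climbed with the ratio of observed to expected CpG in the promoter, from 4.59% in the lowest quintile through 10.7%, 13% and 14.2% to 14.9% in the highest. The ETS core CCGGAAG, shown above in YAE1 and TRMT10C, was in 10.7% of all 27305 promoters, in 16.9% of the promoters of tested genes and in 26.4% of those of risers. Of genes with it 18% rose (median difference 0.16), and of genes without it 10.1% rose (median 0.02). Within the 2 highest quintiles of CpG the shares were 17.7% and 13.7%, among genes above the median level 19.1% and 12.8%, and without control replicate 3 26.2% and 15.9%. The E-box CACGTG, shown in UTP20 and in the faller ARRDC4, was in 7.43% of all promoters, 9.84% of tested and 15% of risers' promoters; 17.5% of genes with it rose against 10.8% without it, and 24% against 17% without control replicate 3. For the other motifs counted, the shares rising with and without the motif were 13.7% and 10.7% for the hypoxia core, 12.6% and 10.8% for the NFY box and 12.3% and 11.4% for the CRE core TGACGTC. They were 11.4% and 11.7% for the GC box GGGCGG, 8.37% and 11.7% for the TATA box TATAAA and 6.04% and 11.6% for the ATF4 element core TGATGCA. These are counts of letters across genes of the same arrays, with no test.

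All measured markers of the cells' line passed the level filter, and some of them were lower on the hairpin arrays. Of 11 tested markers of HEK293 and of adrenal or kidney lineage, 0 rose and 4 fell in the fit: NEFL (-0.87), ENO2 (-1.31), KRT8 (-0.57) and VIM (-0.93), and the sum of the list's log2 levels was 103 to 105 on the control arrays and 99.0 to 99.8 on the CPSF3 hairpin arrays. For fibroblast markers 1 of 7 tested fell (FBLN1, -0.47), and 4 were below the level filter; sums were 80.4 to 82.5 and 79.7 to 81.1. Of the blood, endothelial and keratinocyte markers tested (3, 4 and 4), 0 were called, and the sums of each list overlapped between the groups. PTPRC of blood, PECAM1 of endothelium, DCN of fibroblasts and TP63 of keratinocytes were below the level filter, but each of these lists also had members above it. Control means were 9.07 for COL1A1, 9.78 for FBLN1 and 8.75 for DSC3, beside 8.58 for PAX2 and 7.65 for NEFM of the line's own list. Passing the filter therefore does not tell these cell types apart. The part of these markers in the results above was not tested.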

How the data were processed

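Total RNA of 9 Flip-In-293 samples, 3 per group, was measured on Affymetrix Human Exon 1.0 ST arrays. The authors deposited log2 probe set signals for 1384231 probe sets; RMA, Affymetrix Power Tools and hg18 are named in the submitters' processing notes, with no version. RMA gives every array the same distribution and hides a shift common to most genes. That the scale is log2 was inferred from maxima of 14.8 to 15.2. The platform annotation gave 1 symbol for 354600 probe sets, several for 14898 and none for 1014733. Of 19497 symbols, 16426 were current in RefSeq, 2950 were updated through a synonym and 121 were kept.

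Levels were medians over at least 3 probe sets; 837 genes had fewer, and 3752 were below the level filter. limma 3.58.1 in R 4.3.3 (with version 1.17.8 of data.table) fitted 9 arrays in 1 model of 3 groups, 2-sided, without a replicate block, with Benjamini-Hochberg adjustment at 0.05. The procedure was checked on simulated data. The number of arrays limits the precision. The gene groups and the other members were chosen with earlier results of these data known. Named genes are CPSF3, the 12 largest rises and falls among genes called with at least 6 probe sets, non-overlapping arrays and 4 in 5 probe sets moving alike, the extremes called in each list (up to 2 each way) and in each family described, and, in the last paragraph of the report, called markers; NRN1 and CHRDL1 were named after their values were seen. Alternatives were the mean as gene level, probe set and gene filters, quantile normalisation, centring, 6 arrays, a replicate block, a variance trend, array weights, a minimum change and leaving out each array. The splits by gene level and CpG and the class counts without control replicate 3 were added after the data were seen. Promoter sequences are RefSeq's on GRCh38.p14; no hg18 coordinates are printed.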

Additional observations from a re-analysis of the deposited data

How the results depend on the processing

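With 3 arrays per group, the number of calls depends on single arrays. No gene called with all arrays was called the opposite way under any of the 21 alternatives. The alternatives reuse the same arrays, so an opposite call was hardly possible. Changes of sign without a call were not counted over all genes. Leaving out 1 array gave 792 to 3188 calls in place of 2214, 438 to 2410 higher in place of 1550, and 223 to 778 lower in place of 664. The mean as gene level gave 3379 calls (2334 higher, 1045 lower), array weights gave 4537 (2793 and 1744), and a minimum log2 change of 0.5 gave 6 (0 and 6). Centred arrays gave 1010 lower; there the median gene difference moved from 0.02 to -0.04. The share of calls that were higher, 70% with all arrays, was 61.6% with array weights, 54.7% without control replicate 2 and 55.3% without CPSF3 hairpin replicate 1. The difference of CPSF3 ranged from -0.27 to 0.028 when 1 array was left out and was above 0 (0.028) without control replicate 3. The cause of these shifts was not tested. Fits that leave out an array also rest on fewer arrays. Apart from the minimum change, of the 164 named genes other than CPSF3, 84 kept their call under every alternative that could test them, 35 lost it under 1 to 3 and 45 under 4 or more, and none reversed. Whether the replicate numbers pair the samples is not settled. The deviations of same-numbered control and CPSF3 hairpin arrays correlated at 0.30, 0.25 and -0.12, and those of differently numbered arrays at -0.43 to 0.32. With the replicate number as a block, 2313 genes were called (1658 higher, 655 lower), 2088 of them among the 2214. Low signal compresses differences on these arrays, and 3752 genes below the filter were not tested.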

Other observations

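Chromosomes held unequal shares of calls. Chromosome 13 had the largest share called higher (16.9% of 237 genes tested, median difference 0.14), and chromosome 22 the smallest (6.74% of 386). Chromosome X was the one with more genes called lower than higher, 8.09% against 7.02% of 470, with a median difference of -0.01. These are descriptions with no test, and genes of 1 chromosome differ in length and promoter type from those of another.

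Zinc finger genes with the stem ZNF were the largest family, with 407 genes tested. Of these 77 rose (18.9%) and 9 fell (2.21%), with a median difference of 0.20, and without control replicate 3 the counts were 133 and 9. Solute carriers (SLC) stood near the shares over all genes. Of 305, 35 were higher (11.5%) and 18 lower (5.9%), beside 10.4% and 4.48% of all genes, with a median of -0.01.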
